A study of Mus musculus with 4 samples.

Results

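The 10 genes H2-K1, H2-D1, B2m, Tap1, Tap2, Tapbp, Psmb8, Psmb9, Psmb10 and Nlrc5 of MHC class I antigen presentation were followed in endothelial cells (ECs) of the lung. They were chosen by name as the core of the pathway and were read as listed among the 24421 genes of the count tables, and at the sites that the deposited site table gives to the same symbols. They were compared between ECs in which ADAR1 deletion was induced with tamoxifen (TM) and untreated control ECs (CON). The ECs came from 2 inducible ADAR1 knockout (i-KO) mice of independent litters, labelled as male C57/BL6 mice of 2 weeks, and each mouse gave 1 CON and 1 TM culture. The mice are named EC1 and EC2, so n = 2 libraries per group, paired by mouse, and p-values measure the spread between these libraries. Where 4 values follow each other they are CON and TM of EC1, then CON and TM of EC2. All 4 cultures carried the floxed ADAR1 gene and the inducible Cre recombinase, and only the TM cultures received 4-OH-tamoxifen, so the agent and the deletion cannot be told apart. The labels call the knockout EC-specific, and the promoter of the inducible Cre is not given in the sources used here. The cells were selected with CD31 and then ICAM-2 antibodies, both of which bind EC surface proteins, and were then cultured.

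MHC class I molecules show peptides from inside the cell to CD8+ T cells. A heavy chain, in these mice encoded by H2-K1 and H2-D1, pairs with beta-2 microglobulin (B2m). The peptides are cut by the proteasome, in which the immunoproteasome subunits Psmb8, Psmb9 and Psmb10 can take the place of the constitutive catalytic subunits Psmb5, Psmb6 and Psmb7, are carried into the endoplasmic reticulum by the transporter of Tap1 and Tap2, and are loaded onto the heavy chain with the help of tapasin (Tapbp). Nlrc5 is a transactivator that acts at class I promoters. Most of these genes are known to respond to interferon. ADAR1 converts adenosine to inosine in double-stranded RNA, and inosine is read as G in sequencing.

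Of the 10 genes, 7 lie in the MHC region of chromosome 17. In GENCODE vM21 on mm10 these were Tapbp at chr17:33915899-33929292 (plus strand), H2-K1 at chr17:33996017-34000347 (minus), Psmb9 at chr17:34181987-34187764 (minus), Tap1 at chr17:34187553-34197225 (plus), Psmb8 at chr17:34197721-34201454 (plus), Tap2 at chr17:34203527-34216321 (plus) and H2-D1 at chr17:35262730-35267499 (plus). B2m lies at chr2:122147686-122153083 (plus), Nlrc5 at chr8:94434356-94527272 (plus) and Psmb10 at chr8:105935735-105938444 (minus). Tap1 and Psmb9 are transcribed away from each other, and their start sites in RefSeq are 225 bases apart.

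The edited adenosines of the 10 genes that the results turn on lie in the 3′ UTR of Tapbp, in a B1_Mus1 element at chr17:33928471-33928618 and a B1_Mur1 element at chr17:33928646-33928793. B1 elements are short repeats of the mouse genome, and these 2 are in opposite orientation with 27 bases between them. They are shown as the RNA-sense strand of the transcript Tapbp-201 (mm10, plus strand, 5′ to 3′), with capitals for each adenosine that passed the editing criteria in at least 1 library.
B1_Mus1, chr17:33928531-33928559: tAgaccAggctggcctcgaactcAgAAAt
B1_Mur1, chr17:33928688-33928702: aggcAgaggcAgtgg
B1_Mur1, chr17:33928724-33928738: gcctgAtctAcaaat

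Aligned to the reverse complement of B1_Mur1, B1_Mus1 was identical at 102 of 140 aligned bases (72.9%). When the 323 bases from the start of the first element to the end of the second were folded by minimum free energy with RNAfold, 114 base pairs were predicted between the elements. Of the 10 edited adenosines shown, 8 were paired with a U of the other element in that fold, and the remaining 2, at positions 33928557 and 33928729, were unpaired. The fold is a prediction from the reference sequence of this stretch alone. Another element, B1_Mur2 at chr17:33928307-33928457, lies before B1_Mus1 in the same orientation. It was not in the folded stretch, so pairing with it was not tested.

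Since 7 of the genes were called higher together, their promoters were read from 250 bases before to 50 bases after the start site in RefSeq (GRCm38.p6). The table held 9 promoters for 8 of the 10 genes, with none listed for Tap2 and Nlrc5. GAAA repeated after any 2 bases, a core of the interferon-stimulated response element, was found on either strand in 3.44% of all 32851 promoters and, among the 10 genes, in that of B2m. A shorter spacing, GAANNGAAA, which was searched for after the longer one had been read, was in 7.52% of all promoters and in those of H2-K1 and H2-D1. The sequences are shown 5′ to 3′ on the strand of each gene, with the match in capitals.
B2m, chr2:122147539-122147566, plus strand: taagaacatGAAACTGAAAatgggaaag
H2-K1, chr17:34000420-34000446, minus strand: tctccacagTTTCACTTCtgcacctaa
H2-D1, chr17:35262935-35262961, plus strand: tctcctcagTTTCACTTCtgcacctaa

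In H2-K1 and H2-D1 the match stands as its reverse complement. For H2-D1 the start site in RefSeq lies downstream of the GENCODE start at 35262730. Its match, 146 bases before the RefSeq start, therefore falls inside the GENCODE span of the gene given above. The Y box letters CCAAT were in 37.4% of all promoters and in those of H2-K1, H2-D1, B2m, Tap1, Tapbp and Psmb9. TGACGCA, a form of the X2 box, was in 2.12% of all promoters and in none of the 9. A match is a description of the letters and no measurement of binding.

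The libraries held 1095488 to 1778732 counts on genes, which were 0.823% to 0.858% of a table's total with the rows that name no gene, so that a count of 0 allowed up to 1.69 to 2.74 CPM, which are counts scaled to a library of 1000000. In bulk RNA, fewer cells of a type and less RNA per cell cannot be told apart. The kit keeps the strand of the RNA and the reads were counted with default settings. Whether the strand setting bears on the low share was not tested. The strand of the counted reads was not tested either, so counts may hold reads of the strand opposite to each gene. The log2 fold changes and adjusted p below are those of the counts as deposited. Read depth in the site table counts reads of either strand and was used as the second measure. The deletion is described by the study as exons 12 to 15 of Adar. Exons 12 to 14 of the transcript Adar-202 had a median depth of 109 reads per 100000000 in EC1 CON and no listed site in EC1 TM, and 118 in EC2 CON against 31.6 in EC2 TM, at 3, 0, 1 and 2 sites. In exons 1 to 11 the depth went from 115 to 504 and from 123 to 463. In exon 15, inside the stated deletion, it also went up, from 74.4 to 320 and from 109 to 403.

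Of 12 endothelial markers, 9 were tested and Cldn5 was called lower in TM, as was Tie1 with the mouse as a block (edgeR adjusted p = 0.0251). The summed CPM of the 12 went from 1344 in CON to 1141 in TM in EC1, and from 1196 to 1238 in EC2. By depth all 11 that could be measured were lower in TM in both mice, with median log2 ratios of -0.54 in EC1 and -0.63 in EC2. Cdh5 had 442 to 869 counts per library. Ptprc, the pan-leukocyte marker CD45, had 0 or 1 count in each library, and the summed CPM of 8 leukocyte markers were 65.7 to 85.4. Cd3e and Lyz2 were at 0 counts, but Lyz2 had an exonic depth of 10.5 reads per 100000000 in CON of EC1 and of 28.6 and 8.44 in CON and TM of EC2. Cd14, in the same list, had 7 to 27 counts and a depth of 528, 445, 747 and 458 reads per 100000000. Csf1r had 50 to 63 counts but 1 listed exonic site, in EC2 TM, at 3.38 reads per 100000000. The 6 markers of dendritic and B cells summed to 144 and 188 CPM in CON and 54.3 and 56.3 in TM, and Clec9a, a dendritic cell receptor, was called lower (log2 fold change -2.34, edgeR adjusted p = 2.31e-05), with Flt3 and Ms4a1 at 0. The site table listed Clec9a at 2 exonic sites of EC2 CON, with a median of 3.48 reads per 100000000, and at none in the other libraries. Fibroblast and smooth muscle markers summed to 477 to 555 CPM, most of it Tagln. By depth Tagln was 0.704-fold and 0.477-fold, Dcn went from 255 to 92.9 reads per 100000000 in EC1 and from 311 to 104 in EC2, and Col1a1 went from 54.1 to 18.2 and from 82.2 to 36.2. In TM of EC1 these rest on 2 sites for Dcn and 1 for Col1a1. Acta2 went from 194 to 24.6 in EC2 and had no listed site in TM of EC1. Pdgfra went the other way in EC2, from 2.09 to 11.1 at 1 and 3 sites, and in EC1 was listed in TM alone, at 5.69. By counts Acta2 (33, 43, 33 and 55) and Tagln (548, 534, 553 and 761) were not called. Epithelial markers summed to 12.8 to 19.6 CPM. The part of these cells in the results was not tested.

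All 10 genes had higher CPM in both TM libraries than in either CON library, which held for 25.3% of the 7899 genes tested. Of the 10, 8 passed the filter on low counts, and 7 of these 8 were called higher in TM by the quasi-likelihood test of edgeR, with p adjusted by Benjamini-Hochberg over all 7899 genes, at an adjusted p of at most 0.05. None was called lower. Of all genes tested, 4.39% were called higher and 3.35% lower. H2-K1, B2m, Tap2, Psmb8 and Psmb9 reached 10 counts in both TM libraries but not in both CON libraries, so they passed the filter through TM and the count of calls is a description. The median fitted log2 fold change of the 8 genes was 3.83, or 3.24 with Psmb8 and Psmb9 set at their lower bounds, against 0.00174 over all genes tested. With 2 libraries per group the smallest two-sided exact permutation p is 0.333, so the p of the model over all genes is given for each gene.

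**Figure D1:**
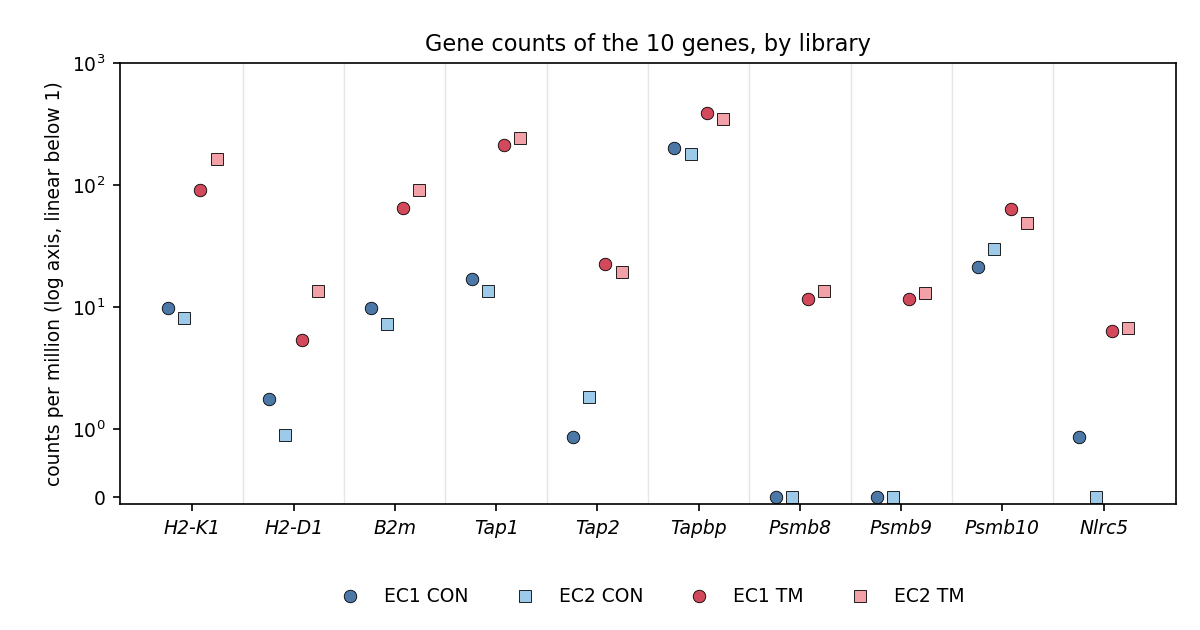
CPM of the 10 genes (log axis, linear below 1), with 1 point per library, circles for EC1, squares for EC2, blue for CON and red for TM. In each gene both TM points lie above both CON points, and Psmb8 and Psmb9 are at 0 in both CON libraries.

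The heavy chain H2-K1 and its partner B2m were called higher, but both passed the filter through TM, so these calls are a description. H2-K1, a classical heavy chain, had 11 and 100 counts in CON and TM of EC1 and 9 and 286 in EC2. Its CPM were 9.25-fold higher in TM in EC1 and 19.8-fold higher in EC2, and its log2 fold change was 3.81 (SE 0.42, derived from the F statistic, edgeR adjusted p = 1.25e-07). B2m, the light chain that all class I heavy chains need to reach the cell surface, had 11, 72, 8 and 161 counts in the same order. Its log2 fold change was 3.19 (SE 0.43, edgeR adjusted p = 4.1e-06). H2-D1, the other classical heavy chain, had 2, 6, 1 and 24 counts and did not pass the filter on low counts. Its groups did not overlap, and the ratio of summed CPM of TM over CON was 7.75 with an exact 95% interval of 2.41 to 39.7 for counting error only.

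The reads of H2-D1 were few in the count tables although its depth was high. At the exonic and UTR sites that each library lists, H2-D1 had a median depth of 453 and 2297 reads per 100000000 in CON and TM of EC1 and 479 and 3335 in EC2. H2-K1 had 299, 2099, 286 and 3256 on the same scale, so the heavy chains had depths of the same order in each library. The median depth times the transcript length, divided by the bases of a read pair, implied 31509 read pairs of H2-D1 in EC1 TM, of which its count of 6 was 0.0190%. For H2-K1 the same share was 0.451%. Over the other genes in EC1 TM it ran from 0.113% for Nlrc5 to 2.38% for Tap1, with 0.175% for B2m, so a low share was not particular to the heavy chains. The transcripts of H2-K1 and H2-D1 were identical at 91.6% of 1579 aligned bases, so reads that fit both genes could have been left out of the counts or placed on either, and how many was not tested. B2m was the deepest of the 10 genes in every library, at 1815, 7314, 2341 and 8045 reads per 100000000, or 4.03-fold higher in TM in EC1 and 3.44-fold in EC2.

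Among the transporter genes, Tap1 had 19 and 234 counts in CON and TM of EC1 and 15 and 431 in EC2. The TM counts stood far above both CON counts. Tap1 had the smallest adjusted p of the 10 genes (6.07e-09 from edgeR), with a log2 fold change of 3.89 (SE 0.37). Its exonic depth was 38.3, 509, 45.3 and 488 reads per 100000000, which is 13.3-fold higher in TM in EC1 and 10.8-fold in EC2. Tap2, which forms the transporter together with Tap1, had 1, 25, 2 and 34 counts and a log2 fold change of 3.85 (SE 0.75, edgeR adjusted p = 0.000691). Tap2 passed the filter through TM, so its call is a description. With 3 counts over both CON libraries, its ratio of summed CPM was 15.3 with an exact 95% interval of 4.97 to 76.1. The depth of Tap2 was 47.7 reads per 100000000 in CON of EC1, at 2 sites, and 181 in TM. In EC2 it was 64.8, at 3 sites, and 218.

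Exons of Tap1 share 212 bases with exons of Psmb9 on the opposite strand, so reads of these genes cannot be told apart there without strand. On the opposite strand, exons of Tap2 share 698 bases with Gm15821 and Gm20496, and exons of Psmb8 share 498 bases with Gm20496. Neither Gm15821 nor Gm20496 is in the count tables. H2-K1, H2-D1, B2m and Psmb10 share no exonic base with another gene on the opposite strand.

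Tapbp, the chaperone that holds the empty heavy chain at the transporter, had the highest counts of the 10 genes in every library and the smallest log2 fold change of the 8 tested. It had 226 and 431 counts in CON and TM of EC1 and 196 and 614 in EC2, and the CPM rose 1.94-fold in EC1 and 1.95-fold in EC2. The log2 fold change was 0.96 (SE 0.29, edgeR adjusted p = 0.0331). The call was lost without any 1 of the 4 libraries, with adjusted p of 0.08 without EC1 CON, 0.23 without EC1 TM, 0.171 without EC2 CON and 0.166 without EC2 TM, and the fit in edgeR that blocks on mouse gave an adjusted p of 5.5e-05.

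Read depth gave a larger difference for Tapbp than the counts. At 24 exonic and UTR sites listed in both libraries of EC1 the median log2 ratio of scaled depth was 2.84, and at 34 sites in EC2 it was 2.75. Most of these sites, 22 in EC1 and 28 in EC2, were in the B1 pair of the 3′ UTR, with median ratios of 7.16-fold and 6.74-fold. Outside repeats there were 1 site in EC1, at 8.23-fold, and 6 sites in EC2, at a median of 6.42-fold. The ratio thus rests mainly on that stretch of the 3′ UTR. Over each library's own sites the median depth was 146, 1130, 196 and 1283 reads per 100000000, 7.75-fold higher in TM in EC1 and 6.55-fold in EC2. The counts were 8.12% and 4.86% of the read pairs implied by depth in the CON libraries and 2.02% and 1.61% in the TM libraries, a share that differed between the groups. Exons of Tapbp share 904 bases with exons of Gm19412 on the opposite strand, and this gene is not in the count tables.

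The immunoproteasome subunits were detected in TM with few counts. Psmb8 had 0, 13, 0 and 24 counts and Psmb9 had 0, 13, 0 and 23. Against a floor of 3 counts over both CON libraries, Psmb8 was at least 9.56-fold higher in TM and Psmb9 at least 9.31-fold higher, and the lower limits of the exact 95% counting interval were 7.40-fold and 7.19-fold. Both were called by edgeR, with adjusted p of 0.000769 and 0.00085, but passed the filter through TM, so these calls are a description. Psmb8 had a depth of 34.6 reads per 100000000 in CON of EC1, at 1 site, and 608 in TM. In EC2 it was 46.3, at 2 sites, and 619. Psmb9 had no listed exonic site in CON, 5 sites with a median of 114 reads per 100000000 in EC1 TM and 2 sites with 199 in EC2 TM. Depth put Psmb8 higher in TM in each mouse, on those few CON sites, and gave no ratio of TM to CON for Psmb9. DESeq2 with the block on mouse gave neither subunit an adjusted p.

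Psmb10, the remaining inducible catalytic subunit, was not called in the fit with condition only. It had 24 and 70 counts in CON and TM of EC1 and 33 and 86 in EC2, and a log2 fold change of 1.12 (SE 0.38, edgeR adjusted p = 0.0678). In the edgeR fit with mouse as block (the replicate block) the adjusted p was 0.0185, so all 8 tested genes were called higher in that fit, in which 7.6% of all genes tested were. DESeq2 did not call Psmb10, with adjusted p of 0.234 without the block and 0.394 with it. The depth of Psmb10 was 43.6 reads per 100000000 in CON of EC1, at 1 site, and 532 in TM. In EC2 it was 547 in TM, and CON listed no exonic site. In EC1 that is 12.2-fold higher in TM, against 2.97-fold for its CPM.

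Nlrc5 had the lowest depth in CON of the genes with a listed exonic site there. It had 1, 7, 0 and 12 counts, too few to pass the filter, and a ratio of summed CPM of 14.7 with an exact 95% interval of 2.34 to 612 for counting error only. Its median exonic depth was 4.13 and 137 reads per 100000000 in CON and TM of EC1 and 4.18 and 93.6 in EC2. This was 33.0-fold higher in TM in EC1 and 22.4-fold in EC2, the widest ratio of the genes measured in both mice, at 4 and 3 sites in the CON libraries. Exons of Nlrc5 share 78 bases with exons of 9330175E14Rik on the opposite strand, which had 9, 353, 6 and 478 counts. Leaving out the sites at which nearly all reads of EC2 were altered, the depth was 19.6-fold higher in TM in EC2, with 1 site left in CON.

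**Figure D2:**
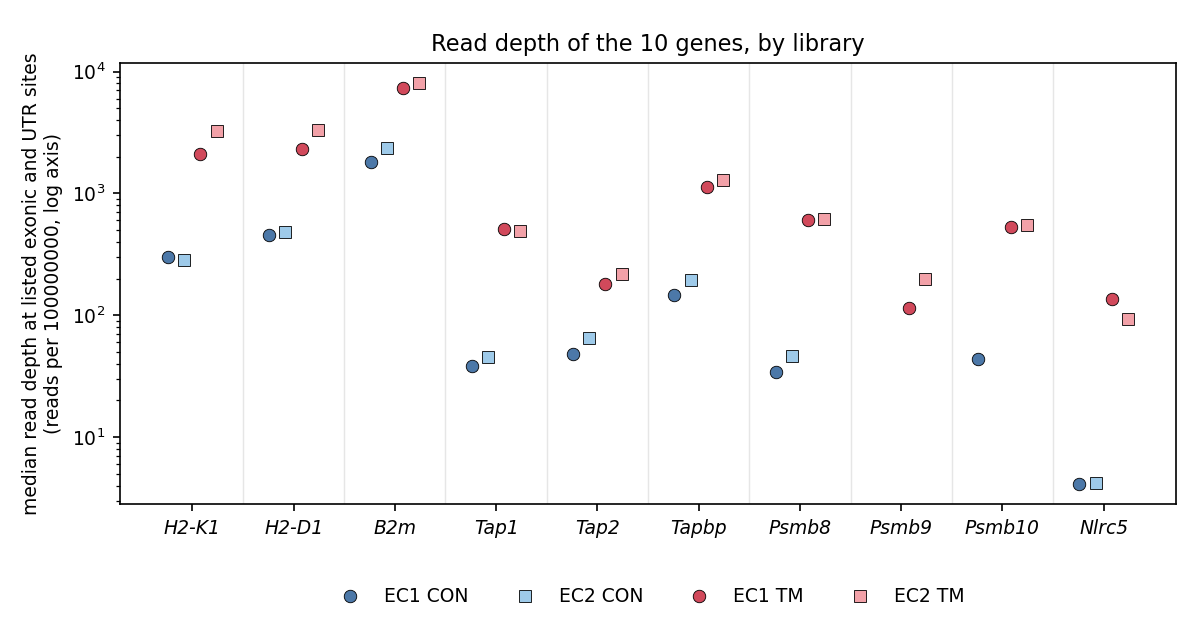
Median read depth of the 10 genes at listed exonic and UTR sites, in reads per 100000000 (log axis), with 1 point per library, circles for EC1, squares for EC2, blue for CON and red for TM. Both TM points lie above the CON points of every gene that has them, and a missing point means that no exonic site was listed.

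Depth was compared within each mouse by a fixed limit, since a single library gives no test. With at least 3 sites listed in both libraries of each mouse, H2-D1 and Tapbp could be measured, and both were at least 2-fold higher in TM in both mice, as were 4.91% of the 1506 genes measured so. With at least 3 own sites in each library, H2-K1, H2-D1, B2m, Tap1, Tapbp and Nlrc5 could be measured. All 6 were at least 2-fold higher in TM in both mice, against 3.95% of 6836 genes, and none was 2-fold lower, against 2.72%. A site is listed only where a library has an altered read, and the number of listed sites differed between the groups. The 10 genes had 126 and 467 listed sites in CON and TM of EC1 and 164 and 512 in EC2.

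The genes were ordered by depth per base within each library. In TM the order was B2m first, then H2-D1 and H2-K1, then Tapbp, and then Psmb8, Psmb10 and Tap1. In EC1 TM the depths of Psmb8, Psmb10 and Tap1 were 608, 532 and 509 reads per 100000000, and in EC2 TM they were 619, 547 and 488. Over sites, unscaled depth in TM of EC1 went from 503 to 4524 reads at the 68 sites of H2-D1, from 945 to 5972 at the 51 sites of H2-K1 and from 4333 to 33259 at the 33 sites of B2m. The ranges of neighbours in this order overlapped. Tap2, Psmb9 and Nlrc5 were the lowest in both TM libraries.

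The other genes of the pathway were read from 5 lists of 64 genes, of which 34 passed the filter and 6 were called higher and none lower by edgeR. With the replicate block 10 were called higher and 4 lower, against 7.6% and 7.39% of all genes tested. Of 17 class I paralogs, 3 passed the filter and H2-Q4 and H2-T23 were called higher. H2-Q4, a nonclassical heavy chain, had 3, 151, 8 and 290 counts and a log2 fold change of 4.90 (SE 0.45, edgeR adjusted p = 4.94e-09). H2-Q4 was under 10 counts in both CON libraries and passed the filter through TM, so its call is a description. H2-T23, which encodes Qa-1, had 33, 77, 22 and 109 counts and a log2 fold change of 1.41 (edgeR adjusted p = 0.0153). H2-T24, the remaining one, had 604, 1110, 581 and 1206 counts and a log2 fold change of 0.66 that was not called (edgeR adjusted p = 0.177, or 0.00656 with the block). Its median depth was 31.6, 75.1, 19.9 and 61.7 reads per 100000000. H2-K1, with fewer counts in each library, had a depth of 299, 2099, 286 and 3256. Counts and depth thus ranked H2-T24 and H2-K1 in opposite order. By depth, 5 paralogs could be measured, and H2-Q4, H2-T22, H2-T23 and H2-T24 were at least 2-fold higher in TM in both mice. Reads of class I paralogs can fit several of them, so their levels are uncertain.

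Of the 12 genes for peptide loading and trimming, 10 were tested and none was called in either direction. Their median log2 fold change was -0.043. Pdia3, the disulfide isomerase of the loading complex, had 81, 33, 72 and 81 counts and a log2 fold change of -0.84 (edgeR adjusted p = 0.16), and Calr, the chaperone calreticulin, had a log2 fold change of -0.75 (edgeR adjusted p = 0.17). With the replicate block both were called lower, with adjusted p of 0.0492 and 0.0393. Erap1, which trims peptides in the endoplasmic reticulum, was the only gene of this list with at least 3 sites in each library and a depth at least 2-fold higher in TM in both mice, at 48.1, 116, 49.5 and 151 reads per 100000000, while its counts were 53, 64, 54 and 51. Tapbpl, which had 2 sites in CON of EC1, was at 16.9, 49.7, 12.9 and 49.7 reads per 100000000.

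None of the constitutive subunits was 2-fold higher in TM in both mice by depth. Psmb5 had 382, 314, 517 and 383 reads per 100000000 and Psmb7 had 519, 404, 573 and 509. Psmb6 had 239, 512, 541 and 484, higher in TM in EC1 and lower in EC2. In CON the inducible Psmb8 was thus at 34.6 and 46.3 reads per 100000000 where its constitutive counterpart Psmb5 was at 382 and 517, and in TM it was at 608 and 619 where Psmb5 was at 314 and 383. Psme1 and Psme2, which encode the activator PA28 of the proteasome, were at least 2-fold higher in TM in both mice, Psme1 at 157, 605, 218 and 641 and Psme2 at 163, 541, 195 and 588. By counts, 3 of the 9 genes of this list passed the filter and none was called. Psme1 and Psme3 were called higher and Psmb7 lower with the replicate block.

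Of 16 regulators, 15 were tested and 4 were called higher and none lower. With the replicate block Rfxap, a subunit of the RFX complex, was called lower (log2 fold change -1.22 and adjusted p = 0.0543 without the block, 0.0174 with it, both in edgeR). Irf1, Stat2 and Irf9, which act in interferon signaling, had log2 fold changes of 2.44, 3.47 and 3.62 (edgeR adjusted p = 0.000949, 6.66e-07 and 0.00199). Each was under 10 counts in both CON libraries and passed the filter through TM, so these calls are a description too. Rfx5, a subunit of the RFX complex that binds class I and class II promoters, had 37, 93, 23 and 105 counts and a log2 fold change of 1.4 (edgeR adjusted p = 0.0158). By depth, Stat2, Irf8 and Irf9 were at least 2-fold higher in TM in both mice.

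Of 10 class II genes, read for contrast, 3 passed the filter and none was called. Ciita, the class II transactivator, had 39, 19, 20 and 21 counts and a log2 fold change of -0.88 (edgeR adjusted p = 0.297). Cd74, the invariant chain, had 6, 12, 10 and 21 counts. No class II gene had enough listed sites for a depth in both mice, and H2-Ab1, H2-DMb1, H2-DMb2 and H2-Ob were at 0 counts in every library. Whether class I and class II genes differed in response was not tested.

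**Figure D3:**
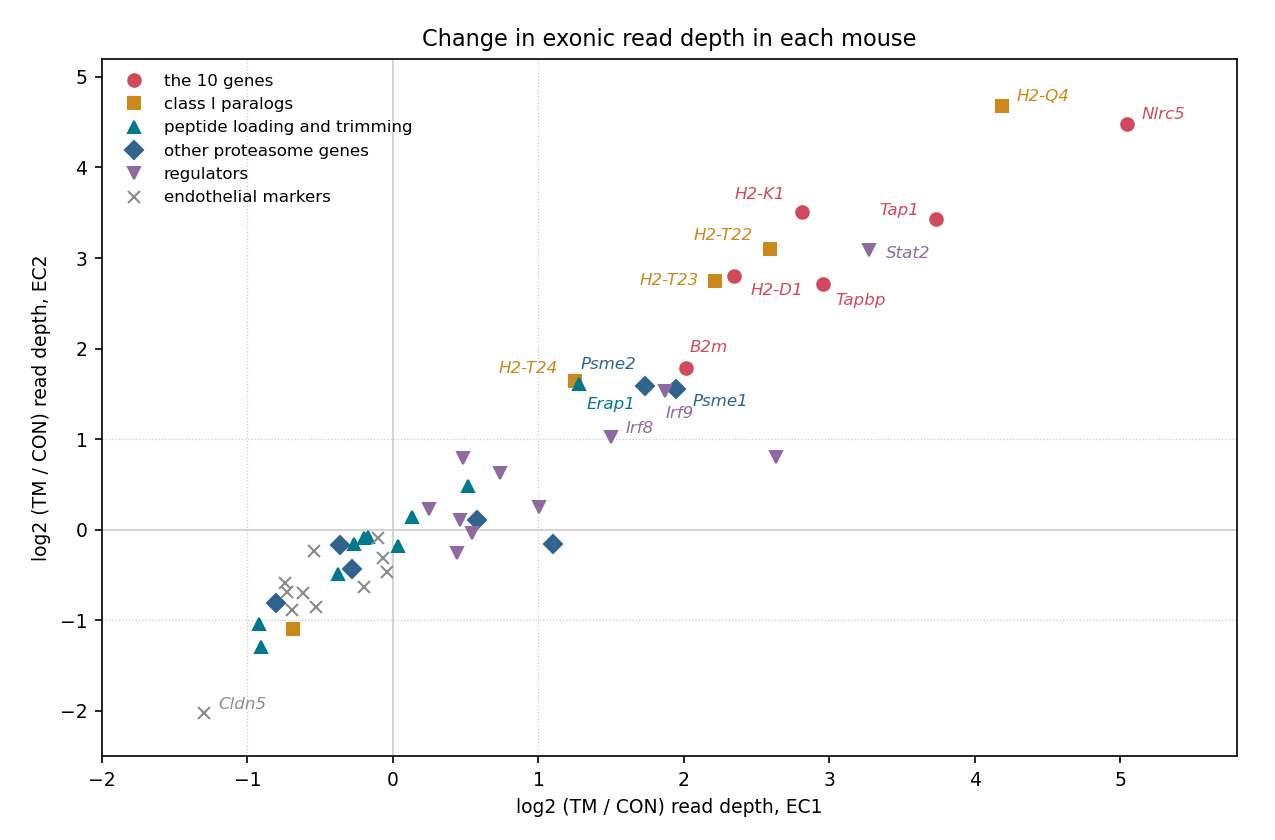
Log2 ratio of TM over CON median exonic read depth in EC1 (x axis) and EC2 (y axis) for genes with at least 3 listed sites in each library, coloured by list, with dotted lines at 2-fold and 1 regulator not drawn. The 6 measurable genes of the 10 lie beyond 2-fold higher in both mice, and Cldn5 is the only endothelial marker beyond 2-fold lower in both.

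Over the 4 libraries, the genes outside all lists whose log2 CPM were most correlated with the mean of the 8 tested genes were Arap2, Cxcl10, Pik3r2, Mynn and Bnip2, each with a Pearson r above 0.99. With 4 libraries, 128 of 7839 genes had an r above 0.99, so this order is a description. Cxcl10, a chemokine, had 0, 11, 0 and 19 counts.

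Among the 10 genes, Tapbp held all sites that passed the editing criteria in a CON library. The site table gave 1043 sites to the 10 genes, and at 722 of them a single altered read was seen over all libraries. The study asks for 5 or more reads, 3 or more of them altered, and a rate between 0.05 and 0.95. By these criteria 19 sites passed in at least 1 library, 9 and 7 in CON and TM of EC1 and 6 and 9 in EC2. Tapbp held 11 of the 19, and 10 of these were in the inverted B1 elements of its 3′ UTR. The other 8 sites, in introns of H2-D1, Tap1, Tap2, Psmb8 and Nlrc5, passed in TM libraries and in neither CON library, where H2-D1 had 5 reads at each of its sites in EC2, Nlrc5 had 1 read at 1 site, and the rest were not listed.

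Of the Tapbp sites, 5 passed in CON of both mice, so their rates in CON were at least 5% by that choice. At all 5 the rate in CON was at least 5 percentage points above that in TM in both mice, which held for 32.9% of the 5393 sites of the whole table that passed in both CON libraries. One of the 5, at position 33928558, was not listed in EC1 TM and its rate there was taken as 0. The share over the whole table also takes the rate of unlisted sites as 0. Whether unlisted sites were unedited was not tested. With 5 or more reads required in both libraries of each mouse, 4 of the 5 sites and 1210 sites of the whole table met the margin. No site of the 10 genes was edited more in TM in both mice by the same margin.

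The most edited adenosine, at position 33928557, was altered in 134 of 196 reads in EC1 CON (68.4%, 95% Wilson interval 61.6 to 74.5) and in 244 of 1442 reads in EC1 TM (16.9%, 15.1 to 18.9). In EC2 it was altered in 156 of 215 reads in CON (72.6%, 66.2 to 78.1) and in 494 of 2239 in TM (22.1%, 20.4 to 23.8). The mice differed far less from each other than CON from TM. Fisher's exact test on the reads, adjusted over all sites of the table in that mouse, gave adjusted p of 1.29e-43 and 2.83e-45, and compares these libraries, not the conditions.

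The next site, at position 33928554, went from 33.3% to 7.91% in EC1 and from 31.1% to 12.9% in EC2. Position 33928733, in the other element, went from 23.4% to 5.2% and from 19.4% to 7.60%. Position 33928532 went from 13.9% to 2.89% and from 12.9% to 4.96%. All of these passed the exact test in both mice, so that 4 sites of Tapbp were among the 39 sites (0.193% of 20243 tested in both mice) called lower in TM in both. The 20243 sites needed 5 or more reads in each library but no set number of altered reads. These 4 had been picked for passing in both CON libraries, so the share is a description. Position 33928558 was at 7.61% in EC1 CON, and at 10.05% in EC2 CON and 4.63% in EC2 TM (adjusted p = 0.296 by Fisher's exact test). Over the listed sites of the 5, the mean rate went from 29.3% to 8.23% in EC1, where TM listed 4, and from 29.2% to 10.4% in EC2. The Wilson intervals cover counting error only.

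**Figure D4:**
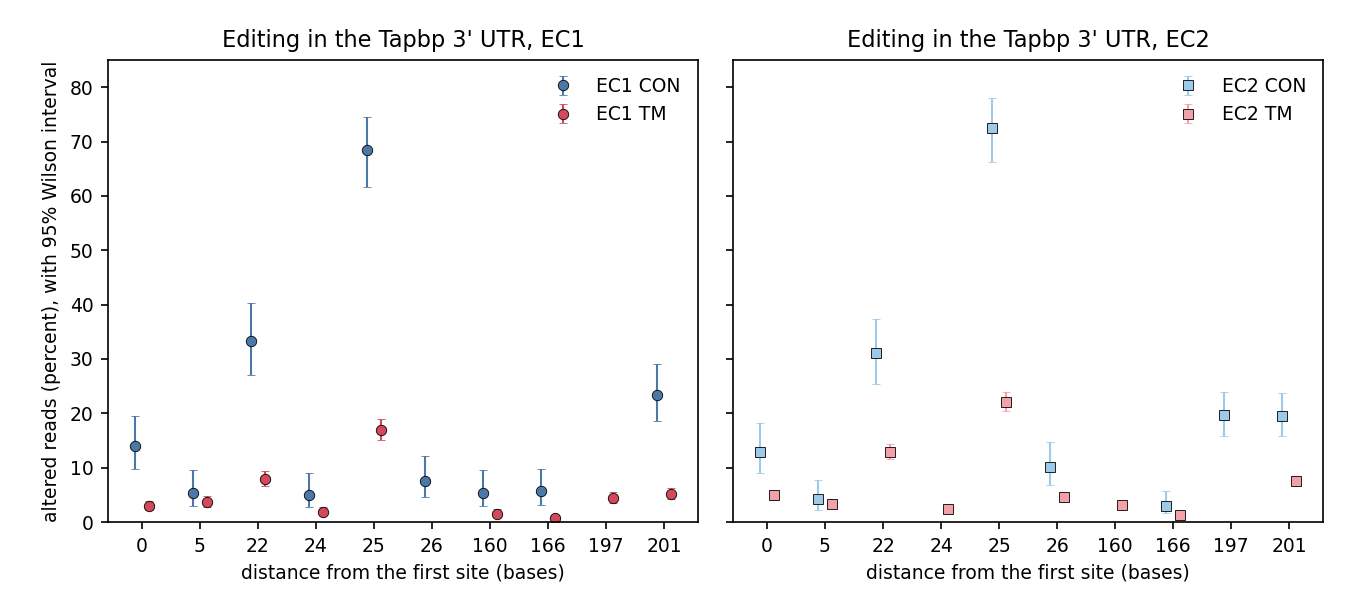
Percent of altered reads at the 10 passing adenosines of the Tapbp 3′ UTR (y axis), with 95% Wilson intervals, in CON (blue) and TM (red) of EC1 (left) and EC2 (right). The sites are evenly spaced and labelled by their distance in bases from the first. The site at distance 25 falls from 68.4% to 16.9% in EC1 and from 72.6% to 22.1% in EC2, and a missing point means that the library did not list the site.

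At most of these sites the lower rates in TM stood beside more altered reads per 100000000. At position 33928557 the altered reads per 100000000 were 100.7 and 185 in CON and TM of EC1 and 109 and 238 in EC2. The unaltered reads at the same site were 46.6, 909, 41.1 and 842 per 100000000, which is 19.5-fold higher in TM in EC1 and 20.5-fold in EC2. Of the 5 sites that passed in both CON libraries, 4 were listed in all libraries, and at these altered reads were 1.51-fold to 2.93-fold higher in TM and unaltered reads 7.56-fold to 20.5-fold higher. The sites at 33928537 and 33928698, which passed in CON of EC1 alone, were also listed in all libraries. At 33928537 altered reads were 4.95-fold higher in TM in EC1 and 5.54-fold in EC2. At 33928698 they went from 8.27 to 7.59 per 100000000 in EC1, a ratio of 0.918, and were 2.77-fold higher in TM in EC2.

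**Figure D5:**
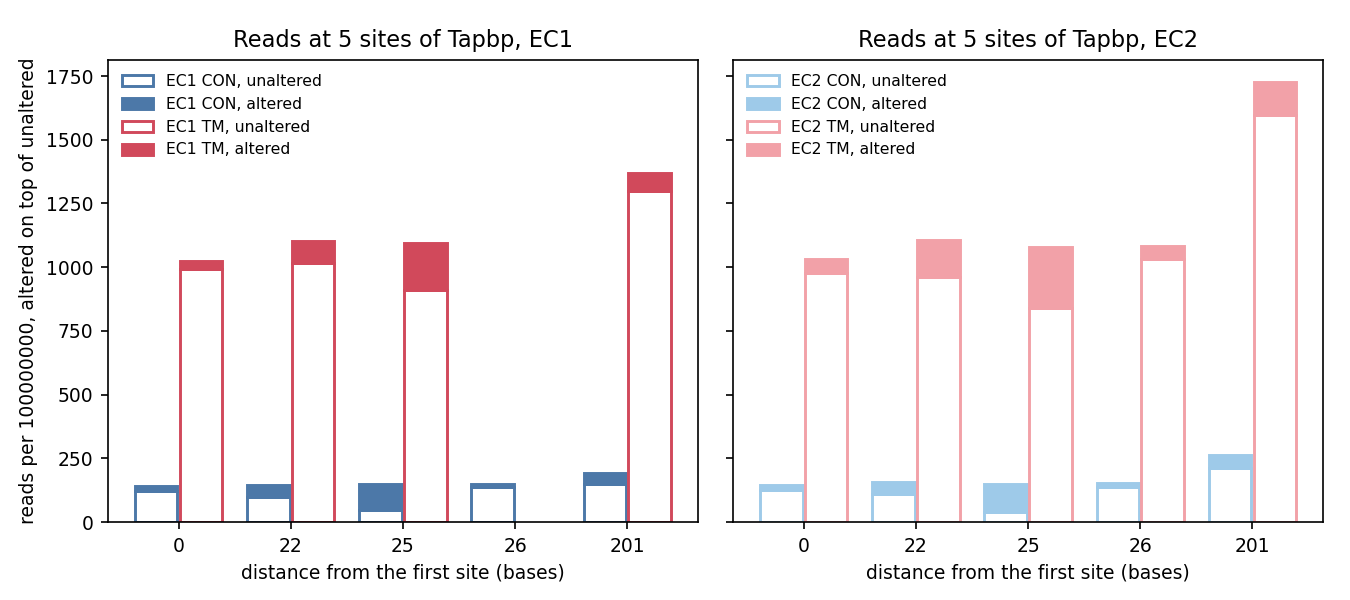
Reads per 100000000 at the 5 sites of Tapbp that passed in both CON libraries, with altered reads (filled) stacked on unaltered reads (open), CON in blue and TM in red, for EC1 (left) and EC2 (right), at evenly spaced sites labelled by their distance in bases from the first. At each site listed in both libraries of a mouse the TM column is the taller, and EC1 TM does not list the site at distance 26.

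Other B1 elements in 3′ UTRs were set beside those of Tapbp. There were 385 other such sites, in 92 genes, that passed in both CON libraries, of which TM listed 318 in EC1 and 353 in EC2. Over the sites listed in TM, the median ratio of the TM rate to the CON rate was 0.409 in EC1 and 0.40 in EC2. Over the Tapbp sites it was 0.230 in EC1, at 4 sites, and 0.391 in EC2, at 5 sites. In EC1 the median depth at the other sites was 53 reads for CON and 53.5 for TM, against 194 and 1448 at the Tapbp sites. Sites that TM did not list have no ratio here. The sites of Tapbp share reads and were not tested against the others.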

How the data were processed

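Total RNA of 4 libraries was depleted of ribosomal RNA, made into libraries with a kit that keeps strand and sequenced as 101-base read pairs. Per the submitters' notes the authors used Trimmomatic 0.38, STAR 2.6.1a (mm10) and HTSeq 0.11.2, with default settings. They deposited raw read counts per gene without normalization. They called variants with BCFtools, kept A-to-G changes of the gene strand, and deposited, per site, counts of unaltered and altered reads and the editing rate, a fraction. Columns of the site table were given to libraries by the study's own list of sites, whose values they match. The annotation used by the authors is not given in the sources used here.

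Rows that name no gene were left out. TM was compared with CON in edgeR 4.0.16 (filterByExpr, TMM, quasi-likelihood, condition only, R 4.3.3) with Benjamini-Hochberg adjustment at 0.05 over 7899 genes, after tests on simulated data. CPM used TMM-scaled library sizes. Standard errors are the log2 fold change over the root of F. Same-mouse libraries shared deviations from the group means (r = 0.163 over genes), and the authors took both cultures from each mouse. Depth is the median over listed exonic and UTR sites, per 100000000 of the count-table total, and the 2-fold limit needed at least 3 sites. Fisher's exact test was adjusted over 45320 sites in EC1 and 47499 in EC2. Biopython 1.88 (global alignment), ViennaRNA 2.7.2, scipy 1.17.1, numpy 2.4.6, pandas 2.3.3 and Python 3.11.15 were used. Alternatives were the mouse as a replicate block, DESeq2 1.42.0, RLE factors, other filters, limits and site sets, and each library left out. All 10 genes, up to 4 genes per list with the smallest p, opposite-strand neighbours, the 5 most correlated genes and sites that passed in both CON libraries were named, and further genes where a depth or block count singled them out, after their values were seen. The genes and lists were chosen with earlier results of these data known. Wild-type cells with TM were not analysed here. A gene of the regulator list and a promoter motif are not reported here.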

Additional observations from a re-analysis of the deposited data

How the results depend on the processing

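All 81 alternative log2 fold changes of the 8 tested genes were positive, 74 kept their side of the threshold and 2 had no adjusted p. The 4 that lost a call were those of Tapbp without 1 library. Blocking on mouse (the replicate block) in edgeR called 1184 genes in place of 612, and of the 8 genes Psmb10 alone changed its call there (adjusted p = 0.0185). DESeq2 called 413 genes and, with the block, 418, giving no adjusted p to Psmb8 and Psmb9. Of the other pathway genes, 10 were called higher with the block in edgeR, 3 with the block in DESeq2 and 2 with at least 10 counts in every library, against 6. With at least 10 counts in every library, 3 of the 10 genes were tested, 2 were called and the median log2 fold change of the 3 was 1.14. That filter left out the genes with low counts in CON.

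Leaving out each library in turn gave 436 to 574 genes called, 4 to 6 of the 10 genes called higher (4 without EC2 TM, where Psmb8 and Psmb9 did not pass the filter and Tapbp lost its call), a median of 3.10 to 3.75, and 4 to 7 other pathway genes called higher. A lone library was then assumed to vary like the other group. Depth put 6 genes in place of 2 at 2-fold higher when each library's own sites were used, and no gene of the 10 could be measured at intronic sites in both mice. Rates of 0.10 to 0.90 left 11 of 19 sites and 3 of the 5 sites edited more in CON in both mice. Requiring sites to be listed in both libraries left 4 of the 5. Depth limits the CON values of Tap2, Psmb8, Psmb9, Psmb10 and Nlrc5, which rest on 0 to 4 listed sites.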

Other observations

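At Nlrc5 the mice differed in sequence. At 24 of its listed sites, 3 of them exonic, more than 95% of at least 5 reads were altered in a library of EC2, with 1005 of 1006 reads over these sites in TM and all 19 reads at the 9 sites listed in CON. Neither library of EC1 listed any of them. From 90000000 to 95000000 on chromosome 8, which holds Nlrc5, CON and TM of EC2 had 182 and 256 such sites and EC1 had none. No library had one among 4354 listed sites between Tapbp and H2-D1 on chromosome 17, nor in the other 9 genes. These sites were looked for after values of the data had been seen.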
